A study of Trichoderma asperellum with 9 samples.

Results

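Trichoderma asperellum is a filamentous soil fungus whose genus is used for the biological control of plant pathogens. Here the wild-type strain Ts93 with 1 mM copper ions added was compared with its untreated control, with 3 libraries in each group. RNA-seq values were deposited as FPKM, a read measure corrected for model length and for library size, for 9396 gene models. Models entered the comparison if their FPKM reached 1 in 3 or more of these 6 libraries, which left 7671 of the 9396. A further 3 libraries of the same strain with 0.5 mM BCS are cited for levels only. The labels do not spell out BCS, an abbreviation widely used for bathocuproine disulfonate, a copper chelator. No source used here gives the medium, the length of exposure, the copper salt, or says that replicate libraries were grown as separate cultures. The spread that the p-values below rest on is that between libraries and may be technical.

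Copper is a cofactor of enzymes such as cytochrome c oxidase and Cu,Zn superoxide dismutase, and in excess it is toxic because it displaces other metals and drives the formation of reactive oxygen species. Fungi are known to answer an excess by lowering high-affinity copper uptake at the plasma membrane, by pumping copper out of the cytosol with P-type ATPases, and by binding it to metallothioneins and other small ligands. Which models of Ts93 encode these proteins cannot be said: of the 9396 identifiers, 0 matched the reference table of the FT101 strain of the species (12041 genes), and no name stands beside them in the deposited table. The response is therefore described by the models themselves, their levels, their lengths and the order of their numbers. Of the models that changed, 2 that rose and 2 that fell are given by identifier, and others are described by rank and length.

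The library totals behind the FPKM values, recovered from their steps, lay between 12335534 and 17142918 reads. Reads recovered over the models made up 99.9% or more of the total in every library. The copper libraries were the shallower group, with 12335534 to 12836226 reads against 13198011 to 17142918 in the control. Copper libraries resembled each other more than control libraries did. Across the tested models, log2(FPKM + 1) correlated at 0.985 to 0.992 between copper libraries and at 0.962 to 0.971 between control libraries. Between the groups the same correlation was 0.936 to 0.961, highest for control replicate 1 with copper replicate 2. Models share libraries and are not independent replicates, so these values describe the libraries and carry no test. Differences in reads between libraries of 1 group were far above counting noise, with a chi-square per degree of freedom of 26.9 at the least. No library was thus another one sequenced again. Among control libraries this measure was 195.3 to 255.6. By it, control replicate 1 was nearer to each copper library (161.9 to 197.1) than to either other control (209.1 and 255.6). Control replicate 2 was nearest to copper replicate 1 (192.3), while other pairs between the groups reached 349.4. The measure grows with read number, and the copper libraries were shallower.

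Copper changed about 1 tested model in 7, and rises outnumbered falls in the scaling as deposited. Of 7671 models, 733 were higher with copper (9.56% of those tested) and 311 were lower (4.05%), or 13.6% together. Models were called at a Benjamini-Hochberg adjusted p under 0.05 in limma, fitted with a mean-variance trend to log2(FPKM + 1) of the 6 libraries, and all fold changes below are on that scale. It understates the change of weakly expressed models. Of the rises, 394 of the 733 stayed under 2-fold, 339 (4.42% of tested models) reached 2-fold, 65 (0.847%) reached 4-fold and 4 (0.0521%) reached 16-fold. After median-of-ratios scaling, 240 of the 441 rises reached 2-fold, and with a pseudocount of 0.1 in place of 1 it was 397 of 700, so whether most rises were under 2-fold depended on such choices. Of the 311 falls, 107 stayed under 2-fold, 204 (2.66%) reached 2-fold, 56 (0.73%) reached 4-fold and 2 (0.0261%) reached 16-fold. The median log2 fold change was 0.95 among models that rose, -1.16 among models that fell and 0.14 over all tested models.

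The surplus of rises moved with the scaling of the libraries, and the median of all tested models was itself raised by 0.14. After median-of-ratios scaling, which sets that median to -0.01, 441 models were higher and 446 lower. Quantile normalization gave 424 higher and 409 lower, while the TPM scale, on which every library has the same sum, gave 1260 higher and 264 lower. The share of rises among the calls was thus 70.2% in the deposited FPKM, 49.7% and 50.9% after the first 2 scalings and 82.7% as TPM. The smallest called rise was 0.53 and the smallest called fall -0.57, so a shift of this size could not turn the sign of a call. Relative to the median model, the median rise was 0.82 and the median fall -1.28 after that scaling.

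**Figure D1:**
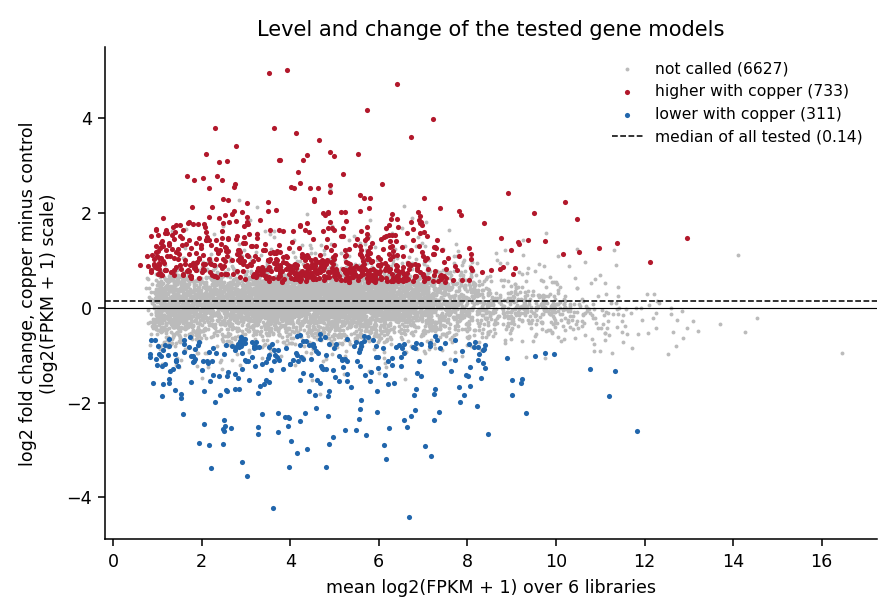
Each point is 1 tested model, with its mean log2(FPKM + 1) over the 6 libraries on the x axis and its log2 fold change (copper minus control) on the y axis; red points were called higher (733), blue points lower (311) and grey points were not called. The dashed line, at 0.14, is the median of all tested models, and called models are found over nearly the whole range of levels.

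No called model had groups that overlapped. All 733 rises and all 311 falls had 3 copper values on 1 side of the 3 control values, but so did 36.9% of all tested models (26.1% higher, 10.8% lower), and the calls come from the same values. The count fell most when a copper library was left out, which leaves 2 in that group. It was 397, 359 and 293 without copper replicate 1, 2 and 3, against 1496, 848 and 730 without control replicate 1, 2 and 3. In all 6 of these reduced comparisons, 254 models were called, 169 of them higher and 85 lower. The filter was applied anew each time, so a model at 1 FPKM in exactly 3 libraries was not tested without 1 of these. Such a model counts there as not called and could not be among the 254. That holds for the 62 rises and 30 falls that entered through the libraries of 1 group alone. Of the full calls, 34 rises and 21 falls were called in none of the 6.

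The largest rise was that of 93-3_5.6A0825, a model with a coding length of 957 bases. Its FPKM was 1.58, 1.77 and 1.75 in the control libraries and 81.2, 94.1 and 82.6 in the copper libraries, from 20 to 29 reads and from 959 to 1132 reads. Both groups were tight and far apart. The rise was 5.01 ± 0.15 log2 units (SE, limma adjusted p = 3.8e-06). With BCS it stood at 0.423, 1.62 and 2.95 FPKM, around the control values.

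Model 93-3_5.6A6785, with a coding length of 726 bases, rose almost as far. It had 1.57, 1.45 and 0.411 FPKM in the control and 52.8, 82.9 and 55.2 with copper, which is 4.94 ± 0.28 on the log2 scale (limma adjusted p = 1.9e-04). Only 5 to 18 reads lay behind each control value, so the ratio of mean FPKM, 55.8, rests on a thinly counted control. With BCS the model had 0.447, 0.742 and 0.921 FPKM.

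The third-ranked rise started from a higher level. This model of 1560 bases had 14.0, 24.3 and 11.4 FPKM in the control and 408.0, 460.9 and 438.0 with copper, or 4.70 ± 0.26 log2 units (limma adjusted p = 1.9e-04). With BCS its libraries did not agree among themselves, at 22.1, 3.15 and 3.90 FPKM. The fourth-ranked, of 381 bases, went from 10.3, 5.51 and 26.6 FPKM to 214.7, 158.6 and 336.0 with copper, and to 1.49, 2.12 and 1.17 with BCS. The fifth-ranked is a supplementary model of 495 bases, one of the models with identifiers of the type of Novel00378, whose origin no source used here gives. It had 35.4, 18.7 and 74.5 FPKM in the control, 258.6, 953.2 and 859.5 with copper, and 92.0, 151.5 and 96.5 with BCS, above the control there too.

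Ranks 3 to 10 of the rises had log2 fold changes of 3.54 to 4.70 and mean levels of 18 to 690.4 FPKM with copper, from 0.349 to 42.9 in the control. All 10 passed the test after median-of-ratios scaling as well, and 9 of the 10 in every comparison that left out a library. The exception, the seventh-ranked, entered the test through the copper libraries alone and so had to differ. It was not tested when a copper library was left out. Control replicate 3 was the highest control library for 7 of the 10. The mean with BCS lay below the control mean for 9 of the 10, values set side by side here since both treatments are read against the same 3 control libraries.

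The largest fall was that of 93-3_5.6A4430, with a coding length of 522 bases. Its control values were 296.5, 311.6 and 1116 FPKM, and its copper values 13.4, 37.0 and 18.8. The groups did not overlap, although control replicate 3 was 3.76 times control replicate 1. The model fell by 4.41 ± 0.54 on the log2 scale (SE, limma adjusted p = 3.1e-03). With BCS it had 219.9, 673.7 and 424.1 FPKM, which overlaps the control.

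Novel00378, of 1767 bases, fell from 25.9, 125.6 and 42.7 FPKM to 2.16, 2.12 and 1.37, that is -4.21 ± 0.49 on the log2 scale (limma adjusted p = 2.6e-03). Copper left 31 to 47 reads per library where the control had 604 to 3806. Here control replicate 2 was the highest, and with BCS the model had 99.7, 216.7 and 132.6 FPKM.

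The third-ranked fall, of 1590 bases, had a steady control, at 22.9, 23.0 and 36.1 FPKM, and dropped to 0.510, 2.20 and 1.71 with copper (log2 fold change -3.56 ± 0.31, limma adjusted p = 1.0e-03). With BCS it lay in between, at 5.30, 6.35 and 5.79. The fourth-ranked, of 282 bases, had 20.2, 4.55 and 26.9 FPKM in the control and 0.575, 0.846 and 0 with copper, and so entered the test through the control libraries alone. The eighth-ranked, of 267 bases, showed the widest range over the 3 conditions: it had 246.6, 84.8 and 465.8 FPKM in the control, 15.5, 32.2 and 23.0 with copper, and 11582, 4247 and 3215 with BCS. Ranks 3 to 10 had log2 fold changes of -3.56 to -3.07, and all 10 falls passed the test after median-of-ratios scaling. In every comparison that left out a library 8 of the 10 passed, without the fourth- and eighth-ranked. The fourth-ranked had to differ, and it was not tested when a control library was left out. The means of the 10 falls with BCS were divided, with 5 of the 10 below the control mean.

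**Figure D2:**
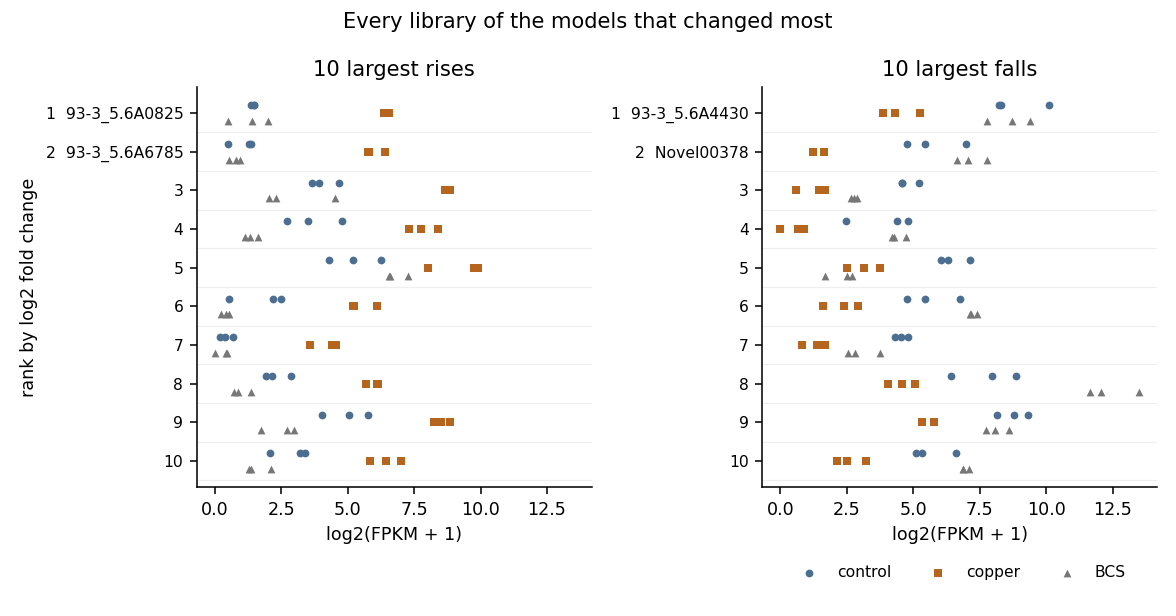
Values of log2(FPKM + 1) in every library (circles, control; squares, copper; triangles, BCS) for the 10 largest rises, left, and the 10 largest falls, right, ranked by log2 fold change. Copper and control points do not overlap in any of the 20 models, which was a condition of the ranking. BCS points lie at or below the control for 9 of the rises by their means and on either side of it for the falls.

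Switching between silence and expression was rare. Only 4 models lay under 1 FPKM in every control library and at 5 or more in every copper library, and 1 model showed the reverse. The strongest of the 4, of 1107 bases and seventh among the rises, had 2, 6 and 11 reads in the control against 150, 315 and 290 with copper (0.137, 0.316 and 0.593 FPKM against 11, 22.6 and 20.4). The 1 model that went the other way, of 621 bases, had 104, 115 and 60 reads in the control and 3, 3 and 4 with copper, or -2.85 ± 0.27 log2 units. With BCS it was above the control, at 124.9, 33.0 and 63.9 FPKM against 12.7, 10.8 and 5.77. At the filter itself, 224 models reached 1 FPKM in exactly 3 of the 6 libraries and 156 in exactly 2, with median levels of 1.03 and 0.781 FPKM. Of those that entered the test, 80 did so through the copper libraries alone and 47 through the control libraries alone. A model of that kind had to differ between the groups, and 62 of the 80 and 30 of the 47 were called.

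By amount of transcript the response looked different, since the models that gained most FPKM were already abundant. Among called models, the largest gain was that of a model of 666 bases, from 7118, 3567 and 4346 FPKM in the control to 9286, 14087 and 17615 with copper. Its log2 fold change was 1.46 ± 0.38 (limma adjusted p = 0.040). Copper replicate 1 lay not far above control replicate 1, and the call held in 1 of the 6 comparisons that left out a library. The second gain, from a model of 1959 bases, went from 3100, 2768 and 3740 to 5009, 6574 and 7315 FPKM (log2 fold change 0.97 ± 0.27, limma adjusted p = 0.049) and was called in 0 of the 6. Of the 5 largest gains, 2 passed the test after median-of-ratios scaling. The firmest of them was the fifth, a supplementary model of 576 bases, with 985.5, 566.4 and 743.8 FPKM in the control and 2234, 2970 and 2969 with copper, called in all 6 (log2 fold change 1.85 ± 0.26, limma adjusted p = 4.7e-03). It had 307.2, 299.0 and 198.9 FPKM with BCS.

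Among called models, the largest loss was that of a model of 468 bases, from 6898, 5728 and 18439 FPKM to 1351, 1160 and 2047, or -2.61 ± 0.46 log2 units (limma adjusted p = 0.010). With BCS it was lower still, at 99.8, 595.6 and 633.0 FPKM. The second loss, of 1374 bases, went from 3611, 3603 and 6789 FPKM to 1352, 1224 and 1107. Each of these 5 called losses had its highest control value in replicate 3. All 5 passed the test after median-of-ratios scaling, but 0 of the 5 in every comparison that left out a library.

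Taken as a share of each library's summed FPKM, the 733 rises went from 3.81%, 2.98% and 3.30% in the control to 7.45%, 9.02% and 9.45% with copper. The 311 falls went from 4.48%, 3.89% and 6.95% to 1.74%, 1.89% and 1.78%. These models were chosen by their difference, so the shares describe its weight in the library and are not tested. Counted in reads rather than FPKM, the rises held 5.12% ± 0.38 of the control and 12% ± 1.05 of the copper libraries (mean ± SD, n = 3).

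Model 93-3_5.6A0895 (291 coding bases), picked for being the most abundant once values were known, moved with these shares. It had 100794, 135308 and 145947 FPKM in the control and 70764, 54618 and 69735 with copper. The groups did not overlap, and its share of summed FPKM was 10.9% ± 2.07 in the control and 6.07% ± 0.74 with copper, a difference with an exact two-sided permutation p of 0.1, the smallest that 3 against 3 libraries allow. Its own log2 fold change, -0.96 ± 0.45, did not pass the test (limma adjusted p = 0.19). The deposited scaling is by read totals, so there it is a lower share of reads that goes with a higher share of all others. Counted in reads, the model held 3.71% of the control and 1.89% of the copper libraries on average. How much of the shift of 0.14 in the median model comes from this was not tested.

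**Figure D3:**
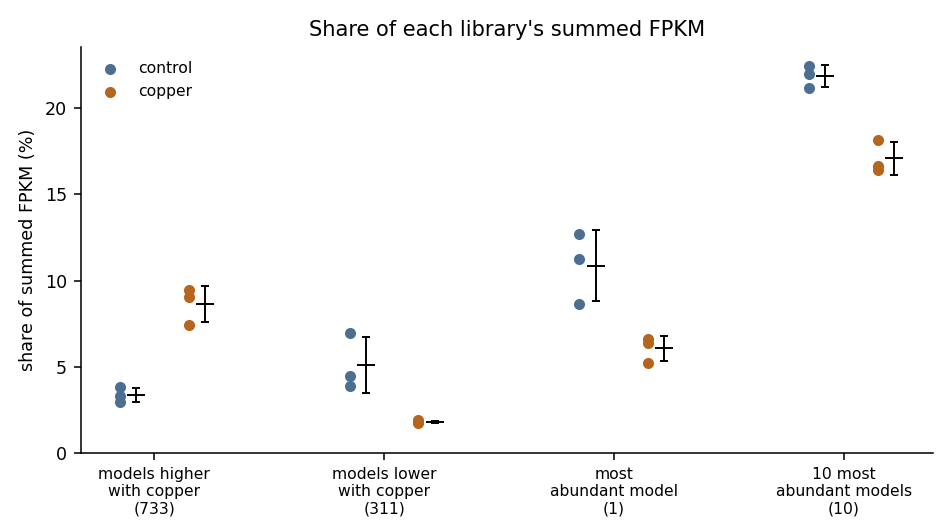
Share of each library's summed FPKM (y axis, %, from 0) held by the 733 models that rose, the 311 that fell, the most abundant model and the 10 most abundant; each point is 1 library, and the black bars are mean ± SD of 3. Control and copper points do not overlap in any of the 4 sets, which for the risen and the fallen models follows from how they were chosen. The fallen models' share is widest in the control, where replicate 3 stands at 6.95%.

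Copper libraries varied less than control libraries among themselves. The median SD of a model over 3 libraries was 0.18 log2 units with copper and 0.25 in the control, and the control SD was the greater for 66.3% of tested models. Models called lower had the wider spread in the control, with a median SD of 0.32 there against 0.22 for models called higher. Both sets were called from these same values, which also holds for the shares of highest libraries that follow. The sets differed in level as well, with median control values of 33.7 FPKM for the falls and 14.9 for the rises. Control replicate 3 was the highest of the 3 control libraries for 62.4% of the falls, compared with 34.3% of all tested models, and replicate 1 for 42.2% of the rises, compared with 31.6%. The falls called without control replicate 3 numbered 217, against 311 with it, and those called without replicate 1 numbered 354. Among copper libraries, replicate 1 was the highest for 53% of all tested models, but for 33.7% of the rises and 37% of the falls.

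**Figure D4:**
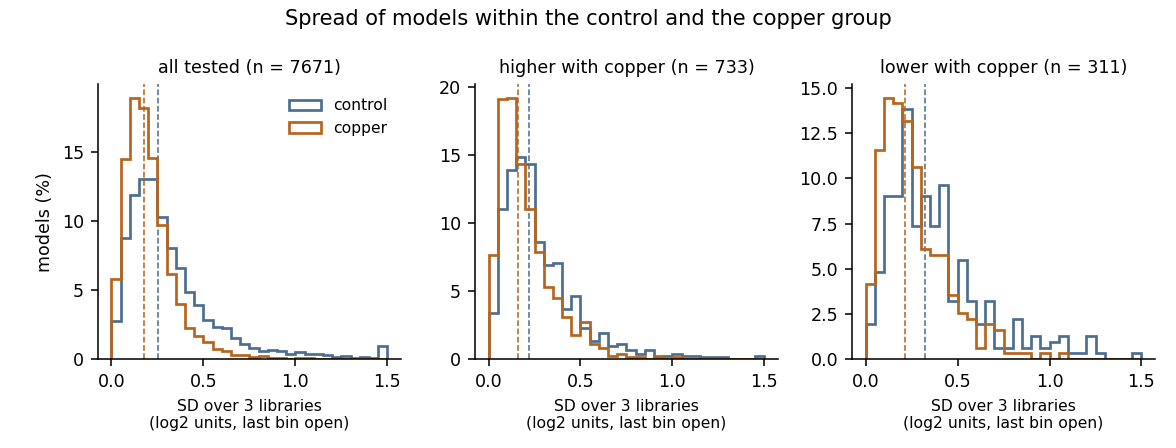
Histograms of the SD of log2(FPKM + 1) over the 3 libraries of the control (blue) and of the copper group (brown), as a percentage of models, for all tested models, those higher and those lower with copper; dashed lines are medians. The copper medians, 0.18, 0.16 and 0.22, lie to the left of the control medians, 0.25, 0.22 and 0.32, in each panel.

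In the deposited scaling, the share of models that changed was much alike over most of the range of levels. Models with a mean under 5 FPKM rose in 10.1% of cases and fell in 4.21%, and those between 20 and 100 FPKM in 10.9% and 3.52%. The shares under 5 FPKM, from 142 rises and 59 falls, include models that had to differ. These entered the test through the copper libraries alone or the control libraries alone, and over all levels 62 rises and 30 falls were of that kind. How many of them lie under 5 FPKM was not counted, and the shares without them were not computed in either scaling. At 500 FPKM or more, 4.71% of 382 models rose and 3.66% fell, and the median log2 fold change there was -0.03 against 0.14 over all tested models. After median-of-ratios scaling, 7.13% rose and 4.85% fell under 5 FPKM. Between 100 and 500 FPKM it was then 4.33% and 7.47%, and at 500 or more 1.83% and 5.50%. The balance thus moved from rises to falls with level, with the models that had to differ included. The share of rises did not follow length among numbered models, whose lengths are coding lengths. Models under 600 bases rose in 7.44% of 981 cases and fell in 4.89%, those of 1500 to 3000 bases rose in 11.3% of 1675 and fell in 3.34%, and those of 3000 bases or more rose in 6.16% of 357 and fell in 2.8%. The short models were also the more abundant ones, with a median control level of 66.7 FPKM against 25.5 at 1500 to 3000 bases, and no comparison matched for level was made.

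Rises outweighed falls among numbered models but not among supplementary ones. Of 6333 tested numbered models, 643 rose (10.2%) and 224 fell (3.54%), while of 1338 supplementary models 90 rose (6.73%) and 87 fell (6.5%). Their median log2 fold changes were 0.16 and 0.01. After median-of-ratios scaling, 6.02% of numbered models rose and 5.12% fell, against 4.48% and 8.97% of supplementary models, so that the order between the kinds stayed while both balances moved down. The kinds also differed in level, with median control values of 29.9 FPKM for numbered and 4.12 for supplementary models.

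A call was followed by one of the same direction at the next identifier number more often than such calls occurred among all numbered models. If a numbered model rose, the next number also rose in 17.5% of 587 cases where that model was tested, beside 10.2% of all numbered models. If it fell, the next fell in 10.8% of 194 cases, beside 3.54%. All these shares include models that entered the test through 1 group alone and so had to differ, 4 of them in the longest stretch below. The shares without such models were not computed. After median-of-ratios scaling the same shares were 15.8% beside 6.02%, and 12.8% beside 5.12%. Over all 5844 tested pairs of adjacent numbers the log2 fold changes correlated at r = 0.17. At a distance of 2 numbers the correlation was 0.04, and at a distance of 10 it was 0.003. Pairs share their libraries and members, so these are descriptions without a test. No source used here says whether the numbers follow positions in the genome.

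At least 3 consecutive numbers all rose or all fell in 15 stretches. Of these, 12 held 44 of the 643 rises of numbered models, and 3 held 10 of the 224 falls. Some stretches of 3 rises also held a model that entered the test through the copper libraries alone. How many stretches would arise if the order of the numbers had no part in it was not tested. After median-of-ratios scaling, 4 of the 12 rising stretches and all 3 falling ones still held at least 3 calls. The longest was a stretch of 8 models that rose, with coding lengths from 450 to 11151 bases and log2 fold changes from 1.28 to 3.78. Of the 8, 4 lay under 1 FPKM in every control library and entered the test through the copper libraries alone, so they had to differ and their calls are no support for the length of the stretch. Its summed FPKM was 48.6, 19.9 and 52.0 in the control and 273.7, 206.2 and 403.1 with copper. Every copper library was at least 3.97 times the highest control. The members were chosen for being called, and no called model had overlapping groups. This sum and those of the stretches below therefore had to differ and are not tested. With BCS the sum was 12, 32.6 and 14.2, which overlaps the control. It held the sixth- and tenth-ranked rises of all models: the sixth, of 1017 bases, had 3.50, 0.459 and 4.64 FPKM in the control and 36.0, 36.7 and 68.3 with copper, and the tenth, of 579 bases, had 8.11, 3.22 and 9.59 and then 85.7, 56.2 and 127.7. The last of the 8, of 870 bases, went from 13.4, 3.62 and 16.7 to 82.5, 74.9 and 139.6 FPKM. The longest, of 11151 bases, stayed weak throughout, at 0.387, 0.220 and 0.696 FPKM in the control and 4.34, 2.04 and 5 with copper. Copper replicate 3 had the highest sum, and control replicate 2 the lowest. After median-of-ratios scaling all 8 passed the test, a count that includes the 4 that had to differ. In every comparison that left out a library 3 of the 8 were called. The same 4 could not be, since without a copper library they fell below the filter and were not tested. The next number after the stretch was not called (log2 fold change 0.54, limma adjusted p = 0.21), and the number before it lay below the filter.

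A stretch of 5 models rose by 1.18 to 2.30 on the log2 scale (limma adjusted p from 4.6e-03 to 0.010), from a summed FPKM of 211.7, 293.3 and 254.3 in the control to 752.5, 1060 and 956.2 with copper. The first of its members moved least, by 1.18, and the others by 1.78 to 2.30. All 5 passed after median-of-ratios scaling, and neither neighbour was called. With BCS the sum was 211.0, 399.0 and 90.9, on both sides of the control. Model 93-3_5.6A6785 itself stood as the third of 4 consecutive rises, and there the members were more uneven. Its neighbours on the same stretch had log2 fold changes of 1.02, 1.51 and 0.61 beside its own 4.94. The one at 1.51 entered the test through the copper libraries alone, and the last of them passed narrowly (limma adjusted p = 0.0495, 3 of the 4 called after median-of-ratios scaling). That last model had 12.9, 11.6 and 16.4 FPKM in the control, 20.7, 21.7 and 20.8 with copper and 70.3, 75.1 and 98.3 with BCS.

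Among the falls, the longest stretch held 4 models, with log2 fold changes from -3.35 to -1.44 (limma adjusted p from 4.2e-03 to 6.1e-03). Their summed FPKM fell from 131.1, 322.9 and 107.7 in the control to 11.5, 29.3 and 16.1 with copper, and stood at 472.1, 534.2 and 523.2 with BCS. All 4 were called in each comparison that left out a library and after median-of-ratios scaling. The first 3 of them moved alike across all conditions, such as the second (rank 6 of all falls, 1584 bases), which had 42.7, 107.9 and 25.9 FPKM in the control, 2.05, 6.53 and 4.28 with copper and 142.8, 167.0 and 138.0 with BCS. The last one did not share the high BCS values: it had 7.09, 10.1 and 6.06 FPKM in the control, 2.14, 2.61 and 1.81 with copper and 1.94, 3.07 and 2.79 with BCS. In a stretch of 3 falls the sum went from 321.0, 680.2 and 588.1 FPKM to 114.9, 94.6 and 60.6, and in another of 3 from 1085, 1030 and 1834 to 472.5, 379.5 and 367.3.

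**Figure D5:**
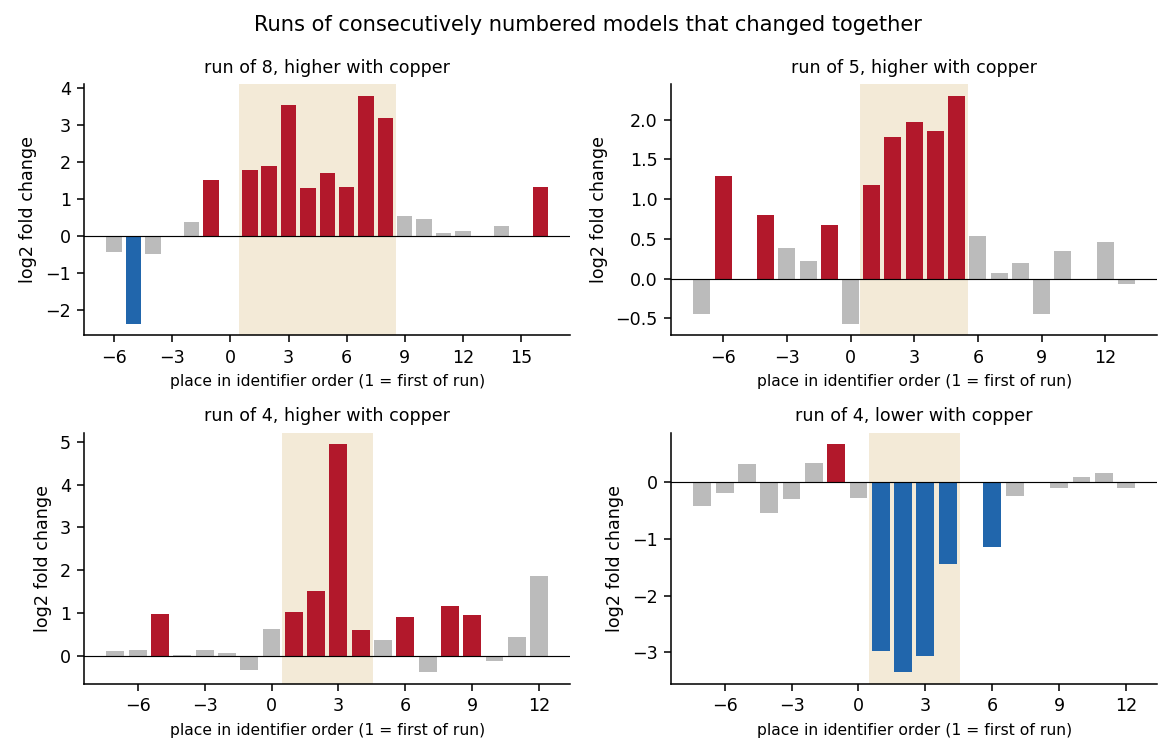
Log2 fold change (copper minus control) of consecutively numbered models, by place in identifier order, for the 4 stretches of at least 4 calls in 1 direction (shaded) with up to 8 tested models on either side; red bars were called higher, blue bars lower, grey bars were not called, and a gap is a number that was not tested. The stretch of 8 reaches 3.78 and the stretch of 4 falls reaches -3.35, while the other stretch of 4, in which 1 model reaches 4.94, is uneven.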

How the data were processed

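The authors deposited 1 table of FPKM per model and library, without pooling. The submitters' processing notes list TopHat2 2.0.12, DESeq 1.18.0, Bowtie2 2.2.3 and HTSeq 0.6.1 without their roles, and mm8, a mouse build that cannot be the genome of a fungus. The sources used here do not give strandedness or the treatment of reads shared by similar or overlapping models, so values of such models are uncertain. Library totals and model lengths were recovered from the FPKM, as 1 read is worth a fixed step per model and library, with 100% of values above 0 within 0.01 reads of a whole number (a condition easily met by models with few reads). Lengths of 99.5% of numbered models with at least 50 reads were multiples of 3.

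limma 3.58.1 (R 4.3.3) was fitted to log2(FPKM + 1) of the 6 control and copper libraries, with a mean-variance trend, 1 mean per group, two-sided tests and Benjamini-Hochberg adjustment over 7671 models. The script was tested on simulated data. An earlier description of these data fitted all 9 libraries together. Members, lists and tests were chosen with earlier results of these data known. Identifiers were given to the 2 largest rises and 2 largest falls by log2 fold change among called models without overlap between groups and with a mean of at least 5 FPKM in the higher group; ranks 3 to 10, and the 5 largest gains and losses in mean FPKM, were described without identifier. Stretches of consecutive numbers were looked at after the values were seen. Gene lists could not be filled without names.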

Additional observations from a re-analysis of the deposited data

How the results depend on the processing

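Directions of the 4 models given by identifier, and their calls, held under all 19 alternatives, with log2 fold changes of 4.87 to 5.63 for 93-3_5.6A0825, 4.66 to 5.95 for 93-3_5.6A6785, -4.80 to -3.79 for 93-3_5.6A4430 and -4.79 to -3.59 for Novel00378. Fitting all 9 libraries gave 750 calls, of which 724 were among the 1044. Voom on recovered reads, chosen after seeing the data, gave 1005, of which 972 were. Without 1 library at a time, calls ranged from 293 to 1496, rises from 188 to 1142 and falls from 105 to 354. Rises of at least 2-fold ranged from 176 to 541 and falls of at least 2-fold from 104 to 204. Models without overlap numbered 2144 to 2731 (higher) and 918 to 1257 (lower). With all 6 libraries they were 2003 (26.1% of 7671) and 827 (10.8%). Groups without overlap stay so when a library is dropped, so apart from the filter these counts can only grow. The share of rises ranged from 60.2% to 76.3% and the median log2 fold change from 0.0864 to 0.163. Scaling turned the sign of that median, to -0.00519 (median-of-ratios) and -0.00078 (quantile), and it was 0.26 as TPM, 0.11 with no filter on low values and 0.11 with a weight per library. Rises numbered 1260 as TPM, 441 after median-of-ratios scaling and 424 after quantile normalization, and made up 82.7%, 49.7% and 50.9% of calls. Models higher without overlap numbered 1315 of 7664 tested and 1321 of 7671 after the latter scalings. Models lower without overlap numbered 1404 and 1328 there, or 527 of 7578 as TPM. With the replicate number as a block, calls numbered 605 (405 higher, 200 lower). Deviations of same-numbered libraries correlated at -0.25, -0.17 and 0.07, so the numbers were not taken as pairs, and not every library correlated best with its own number. In reads, not FPKM, rises held 5.12% of the control and 12% of the copper libraries, falls 1.96% of the copper libraries, the most abundant model 3.71% and 1.89%, and the 10 most abundant models 8.67% and 7.04%. The causes were not tested. Few reads limit the control values of some strong rises, such as 93-3_5.6A6785 with 5 to 18 reads. Others were well counted, such as the third-ranked with 289, 650 and 299.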

Other observations

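Some abundant models differed widely among the control libraries. Of 382 models with a mean of at least 500 FPKM, 13 varied more than 5-fold among the 3 control libraries and 0 did so among the 3 copper libraries. The widest, of 228 bases, had 22614, 5767 and 599.7 FPKM in the control and 4211, 6400 and 5253 with copper, and did not pass the test (limma adjusted p = 0.90). Another, of 417 bases, had 32771, 6430 and 2720 FPKM in the control and 3905, 4889 and 4001 with copper (limma adjusted p = 0.44). In each of the 5 widest, control replicate 1 was the highest and replicate 3 the lowest, whereas replicate 3 was the highest control library for 62.4% of the models that fell with copper. These 5 were singled out after their values were seen.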
